A study of Mus musculus with 4 samples.

Results

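T-box transcription factors were examined by RNA sequencing of adipocytes from perigonadal white fat, a visceral depot of the abdomen. The male mice ate a standard diet and were of genotype CKO or were littermate controls of genotype WT, with 2 libraries for each genotype. BLIMP1, a transcriptional repressor encoded by Prdm1, is the factor named in the title of the series. The deleted gene, the Cre driver, the age of the mice and whether a library is 1 animal or a pool are not stated in the sources used here, so p-values reflect only how these libraries vary. The 9 members, of 55487 genes in the table, were taken by symbol: Tbx1, Tbx2, Tbx3, Tbx4, Tbx5, Tbx15, Tbx18, Tbx20 and Tbx21. They were chosen by family and selected on a measured value, since Tbx3 had the smallest p among genes higher in CKO. Tbx15 and Tbx18 are in the set as known marks of depots or precursors. The differences of the members are therefore given as descriptions with no p. The table holds 8 other T-box genes (Eomes, Mga, T, Tbr1, Tbx6, Tbx10, Tbx19 and Tbx22), which are given beside them.

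T-box proteins bind DNA through a conserved domain, the T-box, and act as activators or repressors in patterning of the embryo, often in a dose-sensitive way. Tbx2 and Tbx3 are close relatives that mainly repress transcription, while Tbx4 and Tbx5 are best known for limb and heart development. In fat, Tbx15 is known as a gene of subcutaneous and brown depots, Tbx1 as a marker of beige adipocytes, and Tbx18 as a marker of mural cells and of progenitors in several organs. Tbx21 encodes T-bet, which drives the type 1 programme of T and NK cells, and Tbx20 acts in the heart.

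The libraries held 24152081 to 26742547 reads, and WT replicate 2 stood apart from the rest in its cell type markers. Adipoq, the adipocyte hormone adiponectin, had 71437 and 43436 reads in CKO replicates 1 and 2, and 44425 and 7561 in WT replicates 1 and 2. The leptin gene Lep, another adipocyte hormone, ran the other way, with 13415 and 23666 reads in CKO and 57746 and 25207 reads in WT. Each of the 16 adipocyte markers listed had at least 479 reads in every library, and they summed to 42714 to 66062 CPM (reads at a common library total) in CKO and 16634 to 40519 in WT. The 16 macrophage markers, such as Adgre1 (F4/80), summed to 1805 and 4422 CPM in CKO, against 9371 and 27390 in WT, so that in WT replicate 2 they exceeded the adipocyte markers. Counts over gene lists and neighbours, and the differences of tested T-box genes, are given with and without WT replicate 2. In bulk RNA, fewer cells of a type and less RNA per cell cannot be told apart. Of 16871 genes tested in limma, the adjusted p was under 0.05 for 0% in either direction; centring the libraries on marker genes gave calls, mostly lower in CKO, as given with the other settings. At an unadjusted p under 0.05, 566 (3.35%) were higher and 1224 (7.26%) lower in CKO, or 859 and 855 with unscaled values.

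Upstream sequence could be read for 5 of the 9 members in the RefSeq promoter table (GRCm38.p6). Tbx2, Tbx3, Tbx5 and Tbx15 had no entry there, so their promoters were not searched. The 250 bases before the start are shown for Tbx18, the best expressed member in that table, and for Tbx20, a member with almost no reads. Capitals mark CpG dinucleotides, and both are on the minus strand of chromosome 9, written 5′ to 3′, at chr9:87731261-87731510 for Tbx18 and chr9:24774304-24774553 for Tbx20.
Tbx18: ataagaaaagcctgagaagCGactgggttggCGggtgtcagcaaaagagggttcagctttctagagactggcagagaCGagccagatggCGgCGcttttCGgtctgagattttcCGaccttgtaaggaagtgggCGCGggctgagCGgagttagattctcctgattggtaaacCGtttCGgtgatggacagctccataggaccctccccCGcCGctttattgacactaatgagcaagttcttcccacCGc
Tbx20: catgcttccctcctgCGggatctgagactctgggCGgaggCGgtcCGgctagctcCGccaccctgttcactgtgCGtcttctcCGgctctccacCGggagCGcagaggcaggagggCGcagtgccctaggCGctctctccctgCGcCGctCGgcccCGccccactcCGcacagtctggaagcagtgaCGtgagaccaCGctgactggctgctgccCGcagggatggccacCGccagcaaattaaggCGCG
The Tbx18 stretch held 15 CpG and that of Tbx20 held 22, against a median of 6 over all promoters in the table. At least as many CpG as for Tbx18 stood in 27.3% of all promoters, and as many as for Tbx20 in 14.8%. The numbers for Tbx4 and Tbx21 were 6 and 16, and the starts of Tbx1 had 10 and 17. The count of CpG thus ran from the median upward among members that had few reads as well as in Tbx18. The core of the T-box motif, GGTGTGA, was searched on both strands over 300 bases (250 before and 50 after the start) and was in 0 of the members' 6 promoters, against 3.98% of all 32851. GAAAGTG, a core of sites that BLIMP1 binds, was likewise in 0 of 6, against 4.81% of all. With so few promoters, 0 of 6 cannot be told apart from the shares over all promoters, and nothing is said of Tbx3. These matches describe only the letters in these windows.

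Tbx3 was the most abundant T-box gene in every library. In RPKM, reads per kilobase of annotated exon at a common library total, it stood at 22.8 and 29.8 in CKO replicates 1 and 2, and at 6.04 and 2.90 in WT replicates 1 and 2. Its level was above that of 86.8% and 89.3% of the genes tested in CKO replicates 1 and 2, and of 60.7% and 46.4% in WT replicates 1 and 2. Tbx2 came next of the members in all 4 libraries, at 3.47 and 3.62 RPKM in CKO and 2.60 and 1.19 RPKM in WT. Tbx18 followed at 0.83 and 1.07 RPKM in CKO, against 0.85 and 0.26 RPKM in WT. Mga, a large repressor that carries a T-box beside a MAX-binding domain, lay between Tbx2 and Tbx18 in 3 libraries and above Tbx2 in WT replicate 2, at 2.44 and 2.75 RPKM in CKO and 2.28 and 2.18 RPKM in WT. Tbx6, a gene of early mesoderm, was at 0.29 and 0.75 RPKM in CKO, against 0.30 and 0.40 RPKM in WT. It lay below Tbx18 in 3 libraries and above it in WT replicate 2. The places of Tbx2 and Mga, and those of Tbx18 and Tbx6, were thus not set apart by more than the spread between libraries. Below these genes the T-box genes reached at most 0.18 RPKM in a library.

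**Figure D1:**
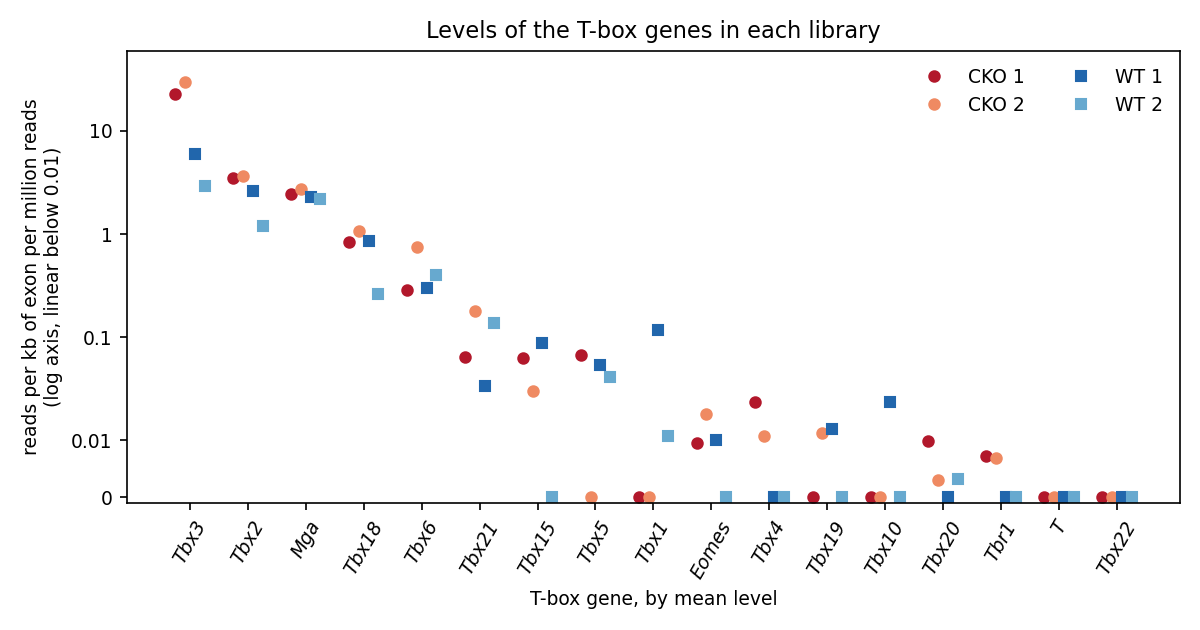
RPKM (log axis, linear below 0.01) of 17 T-box genes in each library; circles are CKO and squares WT. Tbx3 leads in all 4 libraries, and its CKO points, at 22.8 and 29.8, stand above its WT points, at 6.04 and 2.90.

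Reads of the members therefore came mostly from Tbx3. It gave 89.7% and 91.3% of all reads of the 9 members in CKO replicates 1 and 2, and 73.3% and 75.8% in WT replicates 1 and 2. Of the 9 members, 3 (Tbx2, Tbx3 and Tbx18) had a mean log2 value of at least 3 and entered the test, and 6 did not. No untested member had more than 12 reads in a library.

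Tbx3 was higher in the CKO libraries by a log2 difference of 2.55 (SE 0.38). Its 9 exon blocks span 119670669 to 119684724 on the plus strand of chromosome 5 (GRCm38). It had 3821 and 5281 reads in CKO replicates 1 and 2, against 966 and 503 in WT replicates 1 and 2. Both CKO libraries were above both WT libraries, and each of the CKO counts was more than 3 times either WT count. Scaled for library size, it averaged 4306 ± 676 reads in CKO and 766 ± 335 reads in WT (SD, n = 2 each). Among the 16871 genes tested, 66 had a larger positive difference. As the values that chose Tbx3, they carry no test. Trim10, next in the order of p among genes higher in CKO, had a log2 difference of 4.67 (SE 0.75) from 51 and 41 reads in CKO and 2 and 0 reads in WT.

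The direction of the Tbx3 difference held in every setting that was run, and its size depended on what the libraries were scaled to. Without WT replicate 2 the log2 difference was 2.09, and without WT replicate 1 it was 3.01. Centred in each library on the mean of the adipocyte markers, it was 1.57, and the CKO values remained above the WT values. The median of all genes moved to -0.97 under that centring. Centred on mural cell or endothelial markers, chosen after the data were seen, it was 1.74 and 1.39, with the groups still apart. Centred on red blood cell genes it was 0.37, and the groups overlapped. As reads per 1000 Adipoq reads, Tbx3 was at 53.5 and 121.6 in CKO and 21.7 and 66.5 in WT, with WT replicate 2 between the CKO libraries.

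Tbx2 had 318 and 351 reads in CKO replicates 1 and 2, against 228 and 113 reads in WT replicates 1 and 2. The gene lies on chromosome 11, from 85832551 to 85841948 on the plus strand. Scaled for library size, it averaged 318 ± 0.45 reads in CKO, against 178 ± 83.4 reads in WT (SD, n = 2 each), a log2 difference of 0.92 (SE 0.43). The CKO libraries were nearly equal and above both WT libraries, and WT replicate 2 was the lowest. Without WT replicate 2 the log2 difference was 0.43, and centred on adipocyte markers it was -0.062 with overlapping groups.

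Tbx18 had 99 and 135 reads in CKO replicates 1 and 2, against 97 and 32 reads in WT replicates 1 and 2. It lies on chromosome 9, from 87702800 to 87731260 on the minus strand. Scaled reads averaged 111 ± 16.3 in CKO and 67.2 ± 47.4 in WT (SD, n = 2 each), with WT replicate 1 between the CKO libraries. The log2 difference of 0.90 (SE 0.63) became 0.13 without WT replicate 2. Centred on adipocyte markers it was -0.077, and on mural cell markers 0.087, both with overlapping groups. WT replicate 2, the library with the lowest mural cell and adipocyte markers, was thus the 1 library that stood apart for Tbx18.

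**Figure D2:**
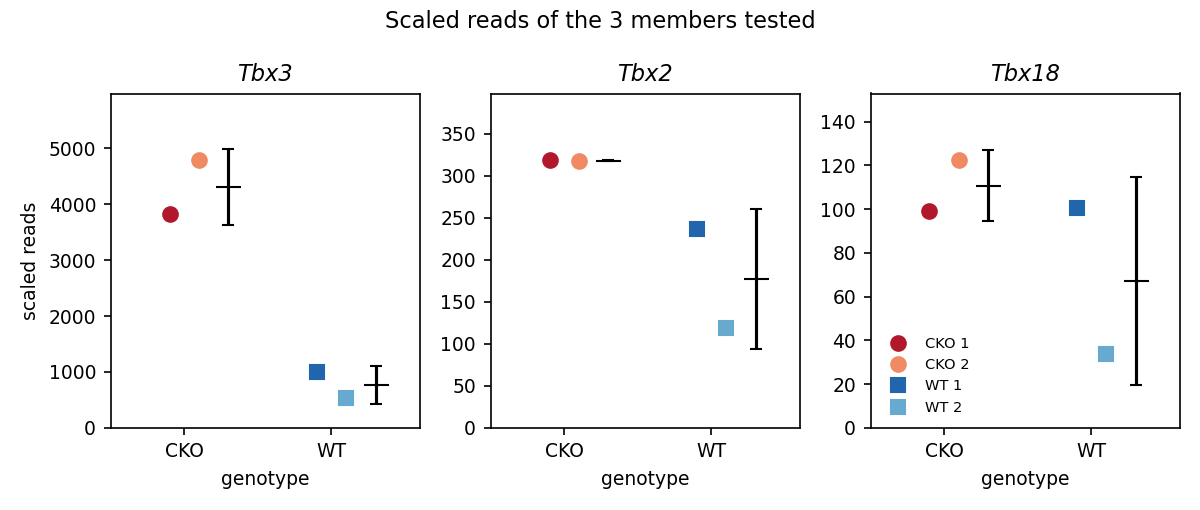
Scaled reads of Tbx3, Tbx2 and Tbx18 (linear axes from 0) in the CKO and WT libraries; black bars are the mean and SD of 2 libraries. The groups are apart for Tbx3, at 4306 ± 676 and 766 ± 335, and overlap for Tbx18.

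Both CKO values exceeded both WT values for 23.9% of all genes tested, and both were under them for 26.8%. With WT replicate 1 as the lone WT library these shares were 34.1% and 35.2%. Of the 3 tested members, 2 (Tbx2 and Tbx3) lay above and 0 below; as the members were chosen with this comparison known, nothing is read from that share. Ratios between members within a library do not depend on how libraries are scaled. Tbx3 over Tbx2, per length, was 6.58 and 8.24 in CKO, against 2.32 and 2.44 in WT. Tbx3 over Tbx18 was 27.5 and 27.9 in CKO, against 7.09 and 11.2 in WT. In both ratios the CKO libraries stood above the WT libraries, WT replicate 2 included. Tbx2 over Tbx18 was 4.18 and 3.38 in CKO and 3.06 and 4.59 in WT, so these groups overlapped. The proportion of Tbx3 to its relatives was thus higher in both CKO libraries, a description that holds the chosen gene and carries no test, while that of Tbx2 to Tbx18 did not separate the groups.

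**Figure D3:**
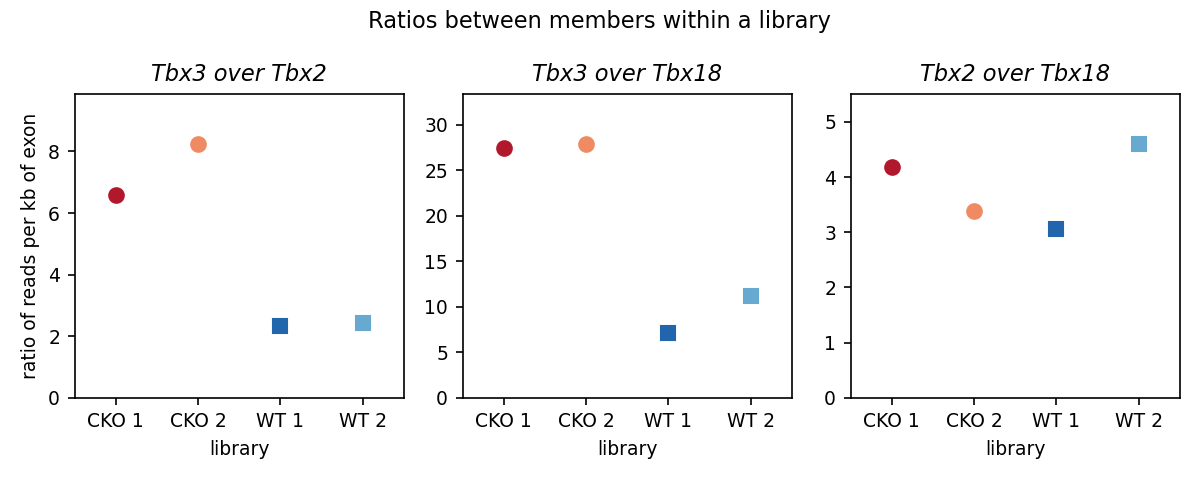
Ratios of reads per kilobase of exon between members within each library (linear axes from 0). Tbx3 over Tbx2 is 6.58 and 8.24 in CKO, against 2.32 and 2.44 in WT, while Tbx2 over Tbx18 overlaps.

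The remaining members were near the limit of detection. Tbx1 had 0 and 0 reads in CKO replicates 1 and 2, against 10 and 1 reads in WT replicates 1 and 2. With the CKO group set at a floor of 3 reads in all, the pooled WT to CKO ratio of Tbx1 was 4.03. That value follows from the floor and is not a bound, as the CKO to WT ratio had a 95% interval of 0 to 0.363. Of the 11 WT reads, 10 came from WT replicate 1, without which the WT group had 1 read and no fold can be given. Tbx15 had 6 and 3 reads in CKO, against 8 and 0 reads in WT. Its pooled CKO to WT ratio was 1.02, with a 95% interval of 0.351 to 3.05, so no difference was detectable at this depth. Tbx5 had 8 and 0 reads in CKO and 6 and 5 reads in WT, a ratio of 0.662 (interval 0.231 to 1.81). Tbx4 had 2 and 1 reads in CKO and 0 and 0 reads in WT, at or under the floor in both groups, so no ratio is given. Tbx20 had 3 and 1 reads in CKO and 0 and 1 reads in WT, a ratio of 3.64 (interval 0.360 to 179). These are exact binomial intervals that cover counting error only, and those of Tbx5, Tbx15 and Tbx20 include equal levels.

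Tbx21, the T-bet gene, had 4 and 12 reads in CKO, against 2 and 9 reads in WT. Replicate 2 was the higher one in both groups, though replicate numbers pair nothing, and the groups overlapped (pooled ratio 1.32, interval 0.577 to 3.16). Eomes, its relative in NK and memory T cells, had 1 and 2 reads in CKO and 1 and 0 reads in WT. The 20 T and NK cell markers summed to 7.36 and 13.9 CPM in CKO and 21.2 and 14.5 CPM in WT, and Cd8a was at 0 in all 4 libraries. Of the 9 tested, 1 lay above and 3 below WT in both CKO libraries, or 1 and 4 without WT replicate 2. Over all genes tested, 23.9% lay above and 26.8% below, or 34.1% and 35.2% without WT replicate 2. Of 8 tested genes of the T-bet programme, 0 passed the adjusted threshold in limma, 1 lay above and 4 below WT in both CKO libraries, also without WT replicate 2. Bhlhe40, a stress-responsive repressor also used in clock and T helper cells, was at -1.08 (log2, SE 0.30), with 1469 and 2008 reads in CKO and 2748 and 3983 reads in WT. Runx3, a lymphocyte transcription factor, had 5 and 15 reads in CKO and 27 and 25 reads in WT. Hlx, a homeobox gene, was at -0.73, and at -0.28 without WT replicate 2.

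Of the other T-box genes, Mga and Tbx6 could be tested. Mga had 944 and 1129 reads in CKO, against 844 and 875 reads in WT, a log2 difference of 0.13 (SE 0.22). Tbx6 had 13 and 36 reads in CKO, against 13 and 19 reads in WT, with overlapping groups (log2 difference 0.32, SE 0.65). Neither passed the adjusted threshold in limma. Without WT replicate 2 the log2 differences were 0.17 for Mga and 0.58 for Tbx6, and centred on adipocyte markers they were -0.85 and -0.67 with overlapping groups. T, the Brachyury gene, and Tbx22 were at 0 in all libraries, and Tbr1, Eomes, Tbx10 and Tbx19 had at most 2 reads in a library.

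Genes on the opposite strand overlap Tbx3, Tbx15 and Tbx18. Tbx3os1, which lies on the opposite strand from 119570130 to 119671365, shares 115 exon bases with Tbx3 (1.74% of its exon length), and whether counting used strand is not stated in the sources used here. Tbx3os1 had 14 and 26 reads in CKO, against 15 and 5 reads in WT, a log2 difference of 0.92 (SE 0.71) with overlapping groups, or 0.21 without WT replicate 2. It amounted to 3.66 and 4.92 reads per 1000 Tbx3 reads in CKO and 15.5 and 9.94 in WT. Tbx3os2, a non-coding gene on the opposite strand that lies beyond the end of Tbx3 without overlap, had 2 and 0 reads in CKO and 0 and 0 reads in WT. Tbx18 shares 970 exon bases, 20.6% of its exon length, with D030062O11Rik on the other strand. D030062O11Rik had 2 and 3 reads in CKO and 7 and 1 reads in WT. Gm43120, opposite Tbx15, shares 0 exon bases with it and had 0 reads in all 4 libraries.

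Tbx3 with Tbx5, and Tbx2 with Tbx4, lie in linked pairs that stem from an old duplication, and Tbx5 and Tbx4 had few reads. Tbx5 starts 162 kb from Tbx3 and had 0 to 8 reads in a library, against 503 to 5281 for Tbx3. Tbx4 starts 53.9 kb from Tbx2 and had 0 to 2 reads. Rbm19, a ribosome biogenesis gene 284 kb from the start of Tbx5, was at -0.29 with overlapping groups, and at 0.038 without WT replicate 2. Within 300 kb of Tbx3 the other tested gene was Tbx3os1. Around Tbx21, 4 of 14 tested neighbours lay above WT in both CKO libraries (Nfe2l1, Sp2, Scrn2 and Mrpl45) and 1 below, or 5 and 2 without WT replicate 2. Their log2 differences ran from -0.69 to 0.99. Around Tbx1 it was 1 above and 3 below of 11, from -0.65 to 1.04, or 1 and 4 without WT replicate 2. Beside these, 23.9% of all genes tested lay above and 26.8% below, or 34.1% and 35.2% without WT replicate 2. Nothing is read from the neighbour counts.

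Genes whose pattern over the 4 libraries was most like that of Tbx3 were found by the Euclidean distance between centred log2 values. The nearest were Pde4c, a cAMP phosphodiesterase (distance 0.19), Apol11b (0.19), Baiap3 (0.24), the platelet glycoprotein gene Gp5 (0.40) and the haemoglobin gene Hbb-bt (0.42). Hbb-bt had 2106 and 3244 reads in CKO and 789 and 334 reads in WT. Its near-identical copies can share reads. Pde4c had 24 and 37 reads in CKO and 6 and 3 reads in WT, and Gp5 had 20 and 37 reads in CKO and 5 and 3 reads in WT. Tbx2 was at distance 1.65 from Tbx3 (place 1122 of 13228), and Tbx18 at 1.71 (place 1302). For Tbx18 the nearest genes were Apbb1 (0.040), the cytokine-induced inhibitor gene Cish (0.053), the calcium pump gene Atp2a3 (0.063), Pcdhb20 (0.066) and Snrk (0.078), and Tbx2 was at 0.45. Tbx15 was under the minimum and was not compared.

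Markers of other cells also differed between these libraries. Summed mural cell markers were at 1133 and 1305 CPM in CKO, against 1026 and 332 in WT, with 9 of 14 genes above WT in both CKO libraries. They were led by Higd1b (log2 difference 1.62), Abcc9 (1.59), Notch3 (1.29) and Rgs5 (1.28). Endothelial markers were at 3664 and 5838 CPM in CKO and 3357 and 1079 in WT, with 8 of 12 above and Kdr, a VEGF receptor gene, at 1.68. The red blood cell genes were at 752 and 1257 CPM in CKO and 365 and 119 in WT, with 6 of 6 above. The median log2 differences of these 3 lists were 1.08, 1.16 and 2.19, and 0.39, 0.45 and 1.38 without WT replicate 2, against 0.015 and 0.0078 over all genes tested. Without WT replicate 2, 9 mural cell markers lay above and 2 below WT replicate 1, with 8 and 0 of the endothelial markers and 6 and 0 of the red blood cell genes. No gene of the 3 lists passed the adjusted threshold in limma. Among all genes tested, 23.9% lay above and 26.8% below, or 34.1% and 35.2% without WT replicate 2. The adipocyte markers had a median of 1.10, and 0.26 without WT replicate 2, with 5 of 16 above and 1 below, or 5 and 2 without it. Macrophage markers ran the other way, with 15 of 16 below WT in both CKO libraries and a median of -2.47. Leaving out WT replicate 2 gave 15 below and 1 above, with a median of -1.71. The part of these cells in the Tbx3 difference was not tested, beyond the centred values given above.

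**Figure D4:**
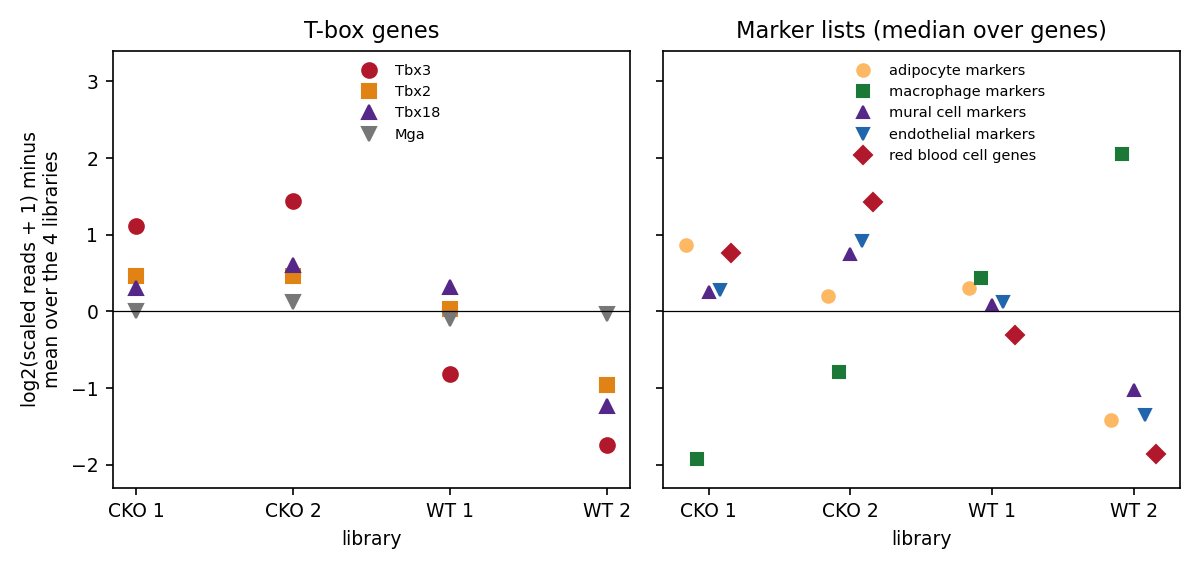
Distance of each library from the mean over the 4 libraries (log2 scale) for 4 T-box genes, left, and as the median over each marker list, right. Tbx3 and the red blood cell genes are above 0 in both CKO libraries and below 0 in both WT libraries, while Tbx2, Tbx18 and the endothelial and mural lists are low mainly in WT replicate 2.

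Genes that work with or under T-box factors were given from lists. Of 11 tested partners and co-repressors, 7 lay above WT in both CKO libraries and 1 below, also without WT replicate 2, and 0 passed the adjusted threshold in limma. Ncor1, a co-repressor of nuclear receptors, had 6958 and 7479 reads in CKO and 4561 and 3398 reads in WT (log2 difference 0.74, SE 0.28). Gata6, a zinc finger partner in the heart, was at 1.79 (SE 0.87), Hdac3 at 0.51 and Tle3 at 0.44. Gata6 was at 0.68 without WT replicate 2. Of 6 tested genes that Tbx2 or Tbx3 are known to repress in heart or tumour cells, 4 lay above WT and 1 below, also without WT replicate 2. The shares over all genes tested were 23.9% above and 26.8% below, or 34.1% and 35.2% without WT replicate 2. The gap junction gene Gja1 had 6884 and 11278 reads in CKO, against 6023 and 2717 reads in WT (0.99, SE 0.48). Ndrg1 was at 1.07. Gja1 was at 0.42 and Ndrg1 at 0.51 without WT replicate 2. None of the 6 passed the adjusted threshold in limma. The cell cycle inhibitor genes that Tbx2 and Tbx3 are best known to repress were looked at after their values were seen. Cdkn1a (p21) had 6120 and 8108 reads in CKO, against 8291 and 8405 reads in WT, a log2 difference of -0.38 with both CKO values below. Cdkn2a had 2 and 4 reads in CKO and 5 and 2 reads in WT, too few to be tested.

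Genes that respond to BMP, a signal of embryonic patterning, were taken as a list. Of 8 tested, 7 had a positive difference and 1 a negative one. The 7 lay above WT in both CKO libraries, also without WT replicate 2, against 23.9% and 34.1% of all genes. Id3, an inhibitor of helix-loop-helix factors, had 18145 and 19468 reads in CKO, against 8474 and 3960 reads in WT (log2 difference 1.56, SE 0.46). Id1 was at 1.88 (SE 0.57), and the inhibitory Smad genes Smad7 and Smad6 were at 1.44 and 1.42. Id1 was at 1.16 and Smad6 at 0.85 without WT replicate 2. None of the 8 passed the adjusted threshold in limma. These are also genes of endothelium, whose markers moved alike, and the part of that was not tested. The ligand gene Bmp4 had 152 and 220 reads in CKO and 98 and 41 reads in WT (1.38, SE 0.54), and Bmp2 was at 0.53. Bmp4 was at 0.77 without WT replicate 2. Over the 9 tested ligands and Wnt modulators, 2 lay above and 1 below, Sfrp2 at -0.84, and Sfrp5 was at -1.05 with overlapping groups. Without WT replicate 2 it was 2 above and 7 below WT replicate 1, with Sfrp5 at -2.05. The share of all genes below was 26.8%, or 35.2% without WT replicate 2.

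Depot genes of development, the class to which Tbx15 belongs, were lowest in WT replicate 2. Of 24 tested, 8 lay above WT in both CKO libraries and 1 below, and 0 passed the adjusted threshold in limma. The median log2 difference was 0.86. Without WT replicate 2 it was 0.14, with 8 above and 5 below WT replicate 1. For all genes tested, the shares were 23.9% above and 26.8% below, or 34.1% and 35.2% without WT replicate 2. Nr2f2, an orphan nuclear receptor also of veins, had 604 and 765 reads in CKO and 373 and 124 reads in WT (1.52, SE 0.56). Its relative Nr2f1 was at 1.53, Hoxa5 at 1.25 and Thbd at 0.85. Nr2f2 was at 0.74, Hoxa5 at 0.59 and Thbd at 0.47 without WT replicate 2. Brown and beige fat genes, among which Tbx1 is counted, had a median of 0.19, with 3 of 14 above and 4 below, or 3 and 6 with a median of -0.36 without WT replicate 2. Ebf2, a factor of brown fat precursors, was at 1.94 and Eva1a at 1.19, while Epsti1 was at -1.57 and Cox7a1 at -1.06. Ebf2 was at 1.04, Eva1a at 0.72 and Epsti1 at -0.90 without WT replicate 2.

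**Figure D5:**
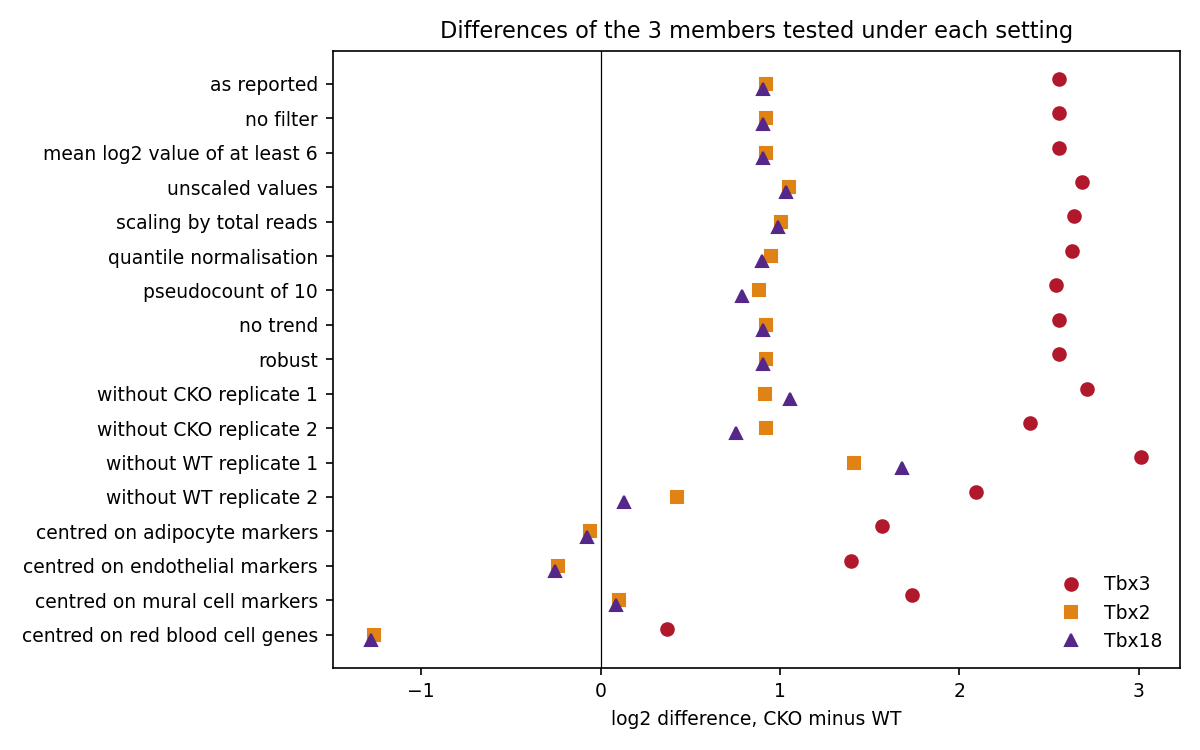
Log2 difference, CKO minus WT, of Tbx3, Tbx2 and Tbx18 under each setting. Tbx3 is positive throughout, from 0.37 centred on red blood cell genes to 3.01 without WT replicate 1, while Tbx2 and Tbx18 lie on either side of 0.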

How the data were processed

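The authors deposited 1 table of log2 values for 4 libraries, described as normalised counts. Undoing the log and taking off 1 gave whole reads, within 0.01, for 100% of genes in each library, and library totals were unequal. The values are thus log2(reads + 1) with no scaling between libraries. STAR 2.7.5c and the build GRCm38.p6 stand in the submitters' processing notes; the counter and its use of strand are not stated in the sources used here. Reads were recovered by rounding and divided by size factors (median ratio over 19847 genes, from 0.951 to 1.10). Log2(scaled reads + 1) was fitted on group in limma 3.58.1 (R 4.3.3; eBayes with a trend, two-sided) for 16871 genes whose deposited log2 values averaged at least 3, with Benjamini-Hochberg adjustment. An exact permutation test of 2 against 2 cannot go below p = 0.333. GENCODE M21 (GRCm38), which matched 99.3% of identifiers, gave coordinates and the length of merged exons.

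Members and lists were chosen with earlier results of these data known. The text names all T-box genes, up to 4 genes of smallest p in each list, the 5 genes nearest in pattern to Tbx3 and Tbx18, and selected neighbours; some genes that this rule names are not reported here. The design foresaw limma. Simulated reads for CKO against WT (17306 genes, within-group SD 0.2) gave back 85% of 2-fold and 100% of 8-fold changes, with 6 unchanged genes called. The log2 SD of Tbx3 was 0.23 in CKO and 0.65 in WT, so these rates do not describe genes as variable as that. The simulation also gave no library a shift shared by many genes, such as that of the cell type markers in WT replicate 2. In the data themselves 0 genes passed in either direction, so the simulated rates are not those of this comparison. Other filters, scalings, a pseudocount of 10, variance models and each library left out were tried. Replicate numbers are by order of accession and pair nothing.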

Additional observations from a re-analysis of the deposited data

How the results depend on the processing

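No paired analysis was possible because the labels give the groups no shared replicate numbers. With each library left out in turn, genes past the adjusted limma threshold numbered 0 to 837 higher and 0 to 938 lower in CKO. The calls came without WT replicate 1, where WT replicate 2 is the 1 WT library left and takes its spread from CKO. Without WT replicate 2, WT replicate 1 is left in the same way, and 0 genes were called in either direction. Why these settings differ was not tested. Centred on adipocyte, endothelial, mural cell and red blood cell genes in turn, counts added after the data were seen, 2, 3, 10 and 2 genes were higher and 148, 726, 677 and 2447 lower in CKO. The other filters, scalings and variance models gave 0. At an unadjusted p under 0.05, the 566 higher and 1224 lower genes became 1143 and 772 with no filter, 333 and 866 at a minimum of 6, 859 and 855 unscaled, 122 and 212 without CKO replicate 1, 187 and 989 without CKO replicate 2, 2875 and 2876 without WT replicate 1, and 260 and 674 without WT replicate 2. Log2 differences over the left-out libraries ran from 2.09 to 3.01 for Tbx3, from 0.43 to 1.41 for Tbx2 and from 0.13 to 1.68 for Tbx18. Centred on adipocyte, endothelial, mural cell and red blood cell genes in turn, Tbx3 was at 1.57, 1.39, 1.74 and 0.37, Tbx2 at -0.062, -0.24, 0.10 and -1.26, and Tbx18 at -0.077, -0.25, 0.087 and -1.28. These centrings moved the median of all genes to -0.97, -1.14, -0.80 and -2.17, and unscaled values moved it to 0.15. All but the adipocyte centring were chosen after the data were seen. The other settings changed no direction of the 3 genes. Depth limits the 6 untested members, at 12 reads or fewer in a library.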

Other observations

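The levels of further cell type markers differed widely. The 12 mesothelial markers, a lining with Wt1 as a defining gene, summed to 22.2 and 16.2 CPM in CKO, against 17.2 and 9.60 in WT. Of 10 tested, 3 lay above and 1 below WT in both CKO libraries, or 4 and 3 without WT replicate 2. Wt1 itself had 17 and 6 reads in CKO and 18 and 18 reads in WT, and Lrrn4 had 110 and 66 reads in CKO and 52 and 3 reads in WT. Fibroblast and preadipocyte markers were at 1515 and 1784 CPM in CKO, against 1798 and 1854 in WT, more than the mural cell markers in every library. Of 17 tested, 3 lay above and 5 below WT in both CKO libraries, or 4 and 7 without WT replicate 2. Lum at -1.90 and Col1a1 at -1.74 were among the lower ones and Fmo2 at 0.95 among the higher. Across all genes tested, 23.9% lay above and 26.8% below, or 34.1% and 35.2% without WT replicate 2. Dendritic and B cell markers were at 94.4 and 164 CPM in CKO and 77.9 and 30.6 in WT. Most of these reads came from Zbtb46, with 2141 and 4077 reads in CKO and 1628 and 551 reads in WT. Zbtb46 ranked the libraries in the same order as the summed endothelial, mural cell and red blood cell genes, and as Tbx3. That order thus points to no 1 cell type. Which cells gave the Zbtb46 reads was not tested, so the sum is not read as a measure of dendritic cells. The B cell gene Cd79a had 29 and 33 reads in CKO, against 21 and 3 reads in WT. Skeletal muscle markers, a tissue in which Tbx15 is known, were at 35.3 and 73.2 CPM in CKO and 44.7 and 12.4 in WT, with Myod1 and Myog at 0.

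Markers of the neighbouring epididymis and testis were uneven. They summed to 16.3 and 1.53 CPM in CKO replicates 1 and 2, and to 1.95 and 0.535 in WT replicates 1 and 2. Insl3, a Leydig cell hormone, had 174 and 35 reads in CKO and 27 and 5 reads in WT, and the sperm protamine gene Prm2 had 93 and 1 reads in CKO and 10 and 2 reads in WT. Of the epididymal genes, Lcn5 and Defb20 were at 0 in all libraries.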
